A study of Mus musculus with 5 samples.

Results

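Heme is the iron-containing porphyrin of hemoglobin, cytochromes and catalase, and it is built by a fixed chain of enzymes that starts and ends in mitochondria and runs through the cytosol in between. In most cells the housekeeping enzyme ALAS1 makes the first product, 5-aminolevulinic acid, and heme itself holds ALAS1 down, whereas red cell precursors switch on a separate, erythroid ALAS2 from the X chromosome. The 8 genes followed here are the rows of the normalized table named Alas1, Alas2, Alad, Uros, Urod, Cpox, Ppox and Fech. They are 8 of 24046 genes in the table, and all 8 were among the 13661 genes tested, which had to reach 10 in no fewer than 2 libraries.

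The libraries are bulk RNA sequencing of mouse hematopoietic stem cells (HSCs) with and without SYNCRIP, an RNA-binding protein. All donor marrow was homozygous for floxed Syncrip, in which loxP sites flank exons that cause a premature stop once removed. WT marrow (Syncrip flox/flox Mx1 Cre-) gave 3 libraries, WT 1, WT 2 and WT 3, and KO marrow (Syncrip flox/flox Mx1 Cre+) gave 2, KO 2 and KO 3. The marrow was carried by CD45.1 congenic recipients, both groups received polyinosinic:polycytidylic acid (pIpC), and donor cells negative for lineage markers and CD48 and positive for Sca1, c-Kit and CD150 were sorted 9 weeks after transplantation and 3 weeks after pIpC. The Mx1 promoter answers to interferon and is not limited to HSCs, so that Cre could act in all donor blood cells, and pIpC itself induces interferon in WT and KO alike. The sources do not say how many mice stand behind each library, and p-values therefore measure the spread between these libraries only.

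Depth was 12539599 reads in KO 3, 18308876 in KO 2 and 21748781 to 22779536 in WT. Syncrip, the targeted gene, had normalized read counts (reads divided by a library size factor) of 1944, 1440 and 1794 in the WT libraries, whereas KO 2 kept 294 and KO 3 kept 343. It fell by 2.43 on the log2 scale (SE 0.22, limma adjusted p = 0.0352) and was the only gene called at an adjusted p under 0.05, 0.00732% of those tested. All 9 HSC genes examined were detected in every library, from a lowest value of 67.7 for Fgd5 in WT 3, while the neutrophil and myeloid list took 2.13% to 5.08% of reads. Cd48, which the gate excludes on the cell surface, still read 601 to 768 in WT and 459 and 191 in KO 2 and KO 3. KO 2 stood apart by brown fat transcripts, with Ucp1 at 5622 and Cidea at 3015 against 0 in the other 4 libraries. The 8 adipocyte genes took 0.0838% of its reads and the 4 brown adipocyte genes 0.0568%, against at most 0.00146% and 0.000059% elsewhere. In KO 3, 10 of 14 erythroid and 6 of 8 neutrophil and myeloid genes lay below all WT libraries, against 38.3% of all genes. Klf1 and Epor lay above them and Gata1, Hbb-bt, Elane and Prtn3 inside their range. The 10 include Hba-a1 and Hba-a2, whose counts were identical, and Hbb-bs, at 837 against a lowest WT value of 838. All 6 megakaryocyte genes lay above all WT libraries in KO 3, against 40.0% of all genes. The 6 megakaryocyte genes took 0.138% of reads in KO 3 against 0.0287% to 0.0510% in WT and 0.0596% in KO 2, and 4 of them (Pf4, Gp1bb, Gp9 and Vwf) were called higher by DESeq2, against 9.54% of all genes.

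The 5′ flanks of the genes for the first enzyme of the pathway and for coproporphyrinogen oxidase are shown as examples that carry matches to the letters searched below. They were taken from RefSeq windows (build GRCm38.p6), with motif matches in capitals. The Alas2 and Cpox stretches lie upstream of the annotated transcripts. The Alas1 stretch lies upstream of the RefSeq start of its own window. It lies downstream of the start of the other Alas1 window and inside the annotated gene. Windows of 250 bases before the start were found for 7 of the 8 genes, 10 windows in all. The Alas1 stretch lies at chr9:106247906-106247935 on the minus strand, the Alas2 stretch at chrX:150547167-150547374 and the Cpox stretch at chr16:58669958-58670207, both on the plus strand.
Alas1: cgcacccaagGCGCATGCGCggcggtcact
Alas2: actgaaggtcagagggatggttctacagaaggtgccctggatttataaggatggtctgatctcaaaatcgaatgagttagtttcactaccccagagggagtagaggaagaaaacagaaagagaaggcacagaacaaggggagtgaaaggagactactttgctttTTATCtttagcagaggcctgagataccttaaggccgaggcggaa
Cpox: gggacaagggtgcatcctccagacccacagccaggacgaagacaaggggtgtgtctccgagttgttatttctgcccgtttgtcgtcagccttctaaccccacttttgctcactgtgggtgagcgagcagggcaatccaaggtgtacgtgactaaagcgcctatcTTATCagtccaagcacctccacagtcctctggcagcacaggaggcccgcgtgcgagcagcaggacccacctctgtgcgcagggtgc

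The letters searched, on both strands, were GATAA, the core read by the erythroid factor GATA1, and GCATGCGC, the core of the site of NRF1, a regulator of nuclear genes for mitochondrial proteins. GCATGCGC was found in 1 Alas1 window, where a match on either strand overlapped, and in no window of the other genes, against 2.26% of all 32851 RefSeq windows. GATAA was found in 3 of the 10 windows, 1 each of Alas2, Cpox and Uros, against 22.6% of all windows, and in Alas2 and Cpox it began 86 bases before the RefSeq start of the window, which lies apart from the gene starts given below. A match is a run of letters, and no binding was measured here.

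Along the pathway, the 8 genes differed widely in level. Per kilobase of the principal transcript, Alad was the most abundant in WT at 3667 ± 689 normalized read counts per kilobase (SD, n = 3). Alas1 followed at 2606 ± 597, Urod at 2156 ± 242, Cpox at 2063 ± 477 and Ppox at 1162 ± 107. Uros at 619 ± 112 and Fech at 590 ± 95.6 were lower, and Alas2 was lowest at 96.3 ± 33.5. The WT libraries did not overlap between Alad and Alas1, Cpox and Ppox, Ppox and Uros, or Fech and Alas2, whereas Alas1, Urod and Cpox overlapped in turn and so did Uros and Fech. The order of the 8 was the same when reads were divided by the union of all annotated exons. Both lengths were greatest for Fech (6571 and 13838 bases), so this is no separate check of its low place. Before division by length, its WT mean of 3878 exceeded those of Urod (3210) and Ppox (2116).

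**Figure D1:**
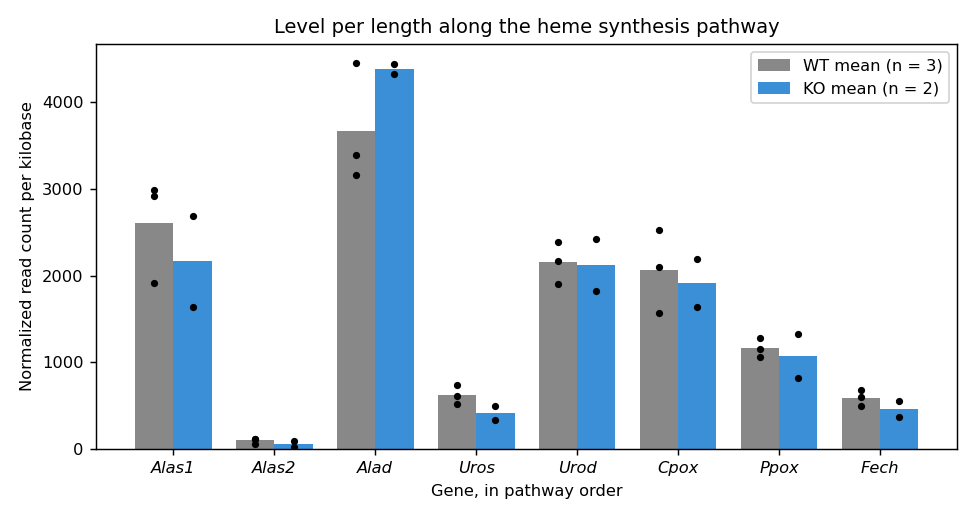
Level of each heme synthesis gene in pathway order (x axis) as normalized read count per kilobase of principal transcript (y axis), with bars for the WT mean (n = 3, grey) and the KO mean (n = 2, blue) and a dot for each library. In WT, Alad stood at 3667 and Alas2 at 96.3, and the WT and KO dots overlapped for every gene shown except Uros.

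None of the 8 genes passed the test between KO and WT. By limma 0 of 8 were called against 0.00732% of all genes, and by DESeq2 on the recovered reads 0 of 8 against 9.54% of genes called higher and 9.81% called lower. The median log2 fold change of the 8 was -0.22, beside 0.02 over all genes tested, with 7 genes below 0 and Alad alone above it. Without KO 3 the median was 0.095, with Alas2, Uros and Fech below 0. For each WT library less the mean of the other WT libraries, the median difference of the 8 had an SD of 0.37. A single library set against others varies more than a difference of group means, so the SD is a wide measure. Both KO values lay below all WT values in 1 of the 8, Uros, against 23.2% of all genes, and in none did both lie above, against 23.9%.

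**Figure D2:**
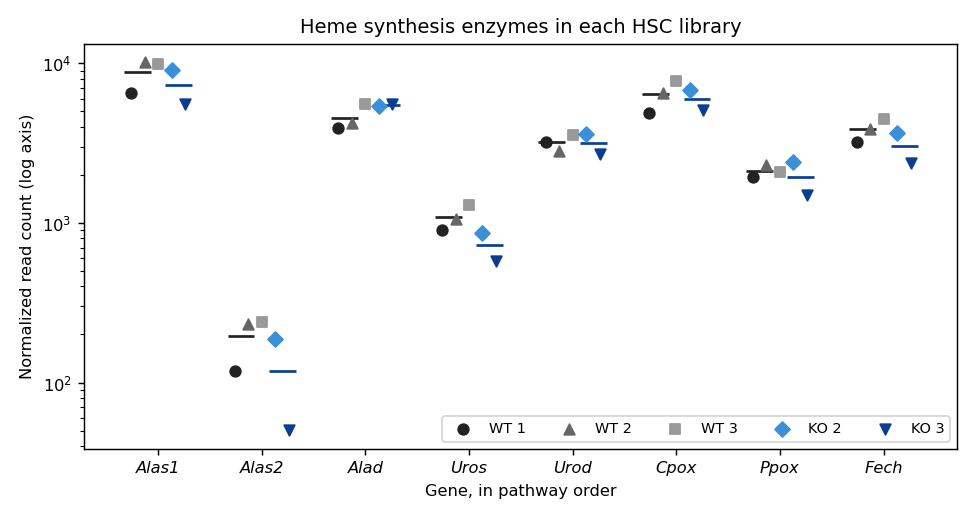
Normalized read count (y axis, log scale) of each of the 8 genes (x axis) in each library, with WT libraries in black and grey, KO libraries in blue, and a short line for each group mean. The KO 3 symbols sit below all WT symbols for 6 of the 8 genes, and both KO symbols do so for Uros only.

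ALAS1 and ALAS2 both join glycine to succinyl-CoA, the step that sets the pace of the pathway. Alas1 (chromosome 9, 106233455 to 106248654, minus strand) read 6516, 10149 and 9905 in WT 1 to WT 3. KO 2 gave 9138 and KO 3 gave 5566. KO 2 lay inside the WT range and KO 3 below it. The KO level was 0.821 times WT with a 95% interval of 0.533 to 1.27 (log2 fold change -0.28, SE 0.27, limma adjusted p = 0.517). Without KO 3 the log2 fold change was 0.073. That fit, like each fit without KO 3 below, rests on KO 2 alone, the library with brown fat transcripts. Whether their source also gave enzyme reads was not tested.

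Alas2 (chromosome X, 150547375 to 150570638, plus strand) was present at 117, 232 and 239 in WT 1 to WT 3, and the KO libraries gave 186 (KO 2) and 50.1 (KO 3). These values rest on 33 to 279 reads. KO 3 was the lowest library and WT 1 the next, and KO 2 lay inside the WT range, so the groups overlapped. The log2 fold change was -0.94 (SE 0.59, 95% interval -2.28 to 0.40, limma adjusted p = 0.318), an interval that holds both a large decrease and a rise. Without KO 3 it was -0.01, and with KO 3 as the only KO library, assumed to vary like the others, it was -1.88 (limma adjusted p = 0.0292). Per kilobase, Alas1 was 33.3 times Alas2 in WT 1, 26.2 times in WT 2 and 24.8 times in WT 3. The ratio was 29.4 for KO 2 but 66.6 for KO 3. The housekeeping enzyme was the main first-step transcript in every library. Exons of Apex2 and Mir3620 overlap Alas2, and of 4930500F10Rik Alas1, all on the opposite strand, and whether the counting used strand is not given in the sources used here.

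ALAD joins the product of the first step into porphobilinogen. Alad (chromosome 4, 62509169 to 62519918, minus strand) read 3944, 4223 and 5551 in WT 1 to WT 3 and 5390 and 5537 in KO 2 and KO 3. It was the single member whose KO mean was higher, at 119% of WT, and both KO values lay inside the WT range. The log2 fold change was 0.27 (95% interval -0.17 to 0.71, limma adjusted p = 0.380), and -0.16 after the trend with transcript length and GC content was removed. As a share of the summed per-kilobase level of the 8 genes, Alad held 26.1% to 29.7% in WT and 30.7% in KO 2, and 40.1% in KO 3.

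UROS closes the tetrapyrrole ring, and its inherited loss causes congenital erythropoietic porphyria. Uros (chromosome 7, 133686243 to 133710072, minus strand) read 907, 1065 and 1299 in WT 1 to WT 3, whereas KO 2 gave 866 and KO 3 gave 580. Both KO libraries were below every WT library, KO 2 by a narrow margin. The KO level was 0.657 times WT (95% interval 0.439 to 0.984, log2 fold change -0.61, SE 0.25). Its unadjusted limma p of 0.0433 was the single one under 0.05 among the 8, where 27.8% of all genes were under that limit, and the limma adjusted p was 0.167. DESeq2 gave an adjusted p of 0.125 and edgeR 0.176. With KO 3 as the only KO library the log2 fold change was -0.89 (limma adjusted p = 0.0366), and with KO 2 alone it was -0.32 (limma adjusted p = 0.589). Uros took 4.66% to 4.93% of the summed per-kilobase level in WT, 3.49% in KO 2 and 2.97% in KO 3.

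UROD then removes carboxyl groups from the ring in the cytosol. Urod (chromosome 4, 116989965 to 116994413, minus strand) read 3228, 2841 and 3561 in WT 1 to WT 3, with KO 2 at 3609 and KO 3 at 2708, just above and just below the WT range. The KO level was 0.978 times WT with a 95% interval of 0.716 to 1.33 (limma adjusted p = 0.927). The log2 fold change of -0.03 became 0.18 without KO 3 and 0.046 without WT 3.

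CPOX and PPOX are the oxidases that turn coproporphyrinogen into protoporphyrin at the mitochondrion. Cpox (chromosome 16, 58670292 to 58717636, plus strand) read 4860, 6500 and 7809 in WT 1 to WT 3, 6801 in KO 2 and 5080 in KO 3, with both KO values inside the WT range. Its KO level was 0.937 times WT (95% interval 0.644 to 1.36, limma adjusted p = 0.816), and its log2 fold change of -0.09 became 0.12 without KO 3 and 0.065 without WT 3. Ppox (chromosome 1, 171275990 to 171281186, minus strand) read 1931, 2320 and 2096 in WT, 2404 in KO 2 and 1494 in KO 3. Here KO 2 was the highest library and KO 3 the lowest, for a ratio of 0.898 (95% interval 0.623 to 1.30, limma adjusted p = 0.686). Without KO 3 its log2 fold change of -0.15 became 0.19. Exons of B4galt3 share 791 bases with Ppox on the opposite strand, and those of Gpr15 share 204 with Cpox.

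FECH places ferrous iron into protoporphyrin and so finishes heme. Fech (chromosome 18, 64452914 to 64490251, minus strand) read 3236, 3908 and 4491 in WT 1 to WT 3, and the KO libraries gave 3650 (KO 2) and 2386 (KO 3). KO 2 lay within the WT range and KO 3 below it. The ratio was 0.768 (95% interval 0.531 to 1.11, log2 fold change -0.38, limma adjusted p = 0.310). The log2 fold change was -0.07 without KO 3 and -0.69 without KO 2 (limma adjusted p = 0.0511).

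**Figure D3:**
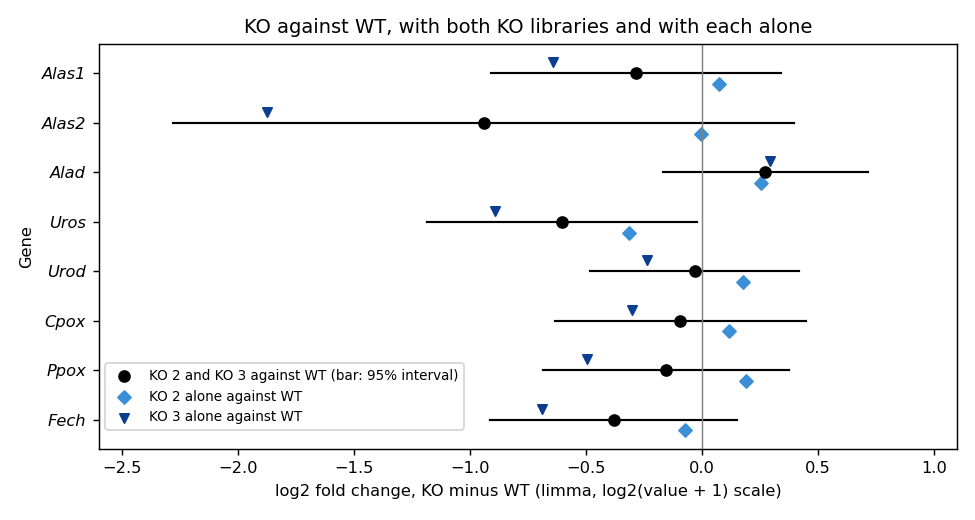
Log2 fold change of KO against WT (x axis) for each enzyme (y axis), with black dots and bars for both KO libraries and their 95% interval, and blue symbols for each KO library alone against the 3 WT libraries. The interval spans 0 for every gene but Uros, and the KO 2 and KO 3 symbols lie on opposite sides of 0 for Alas1, Urod, Cpox and Ppox.

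The 2 KO libraries did not move together. KO 3 was below all WT libraries for 6 of the 8 genes, against 38.3% of all genes tested, and its median difference from the WT mean over the 8 was -0.57 on the log2 scale. KO 2 was below all WT libraries for 1 gene, against 30.9% of genes tested, and above all for 2, against 32.8%, with a median difference of 0.095. WT 1 was in its turn below both other WT libraries for 7 of the 8, against 35.9% of genes tested, with a median difference from them of -0.37. The 8 genes together took 0.136%, 0.165% and 0.179% of reads in WT 1 to WT 3. Their share was 0.170% for KO 2 and 0.123% for KO 3. In that share KO 3 lay closer to WT 1 than to KO 2, and WT 1 closer to KO 3 than to WT 2 or WT 3.

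Genes of HSC identity and of the red cell lineage were set beside that order of libraries. The mean log2 level of the 8 enzymes relative to WT was -0.28, 0.06 and 0.22 in WT 1 to WT 3, while KO 2 stood at 0.05 and KO 3 at -0.61. For the 9 HSC genes it was 0.65, -0.00 and -0.65 in WT 1 to WT 3, with KO 2 at -0.05 and KO 3 at 1.01. WT 1 and KO 3, lowest for the enzymes, were highest, WT 3 was lowest, and WT 2 and KO 2 lay between them in both lists. Meis1, a transcription factor of HSCs, read 3096, 2037, 1604, 2223 and 5092 in the same order. The HSC list took 0.0652% to 0.111% of reads in WT and 0.0772% and 0.133% in KO 2 and KO 3.

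The 14 erythroid genes analysed took 0.209% to 0.299% of reads in WT, 0.222% in KO 2 and 0.140% in KO 3, and none was at 0. Their mean log2 level relative to WT was -0.28, -0.03 and 0.31 in WT and 0.13 in KO 2, against -1.08 in KO 3. Slc4a1, the band 3 anion exchanger of the red cell membrane, had the lowest fold change of the list and read 513, 988, 851, 660 and 25.8 from WT 1 to KO 3. Gata1 read 2590, 3311 and 3442 in WT, with KO 2 at 3134 and KO 3 at 2819 (log2 fold change -0.06, limma adjusted p = 0.864). Klf1, a red cell transcription factor, was at 4231 to 6500 in WT and at 8090 and 7671 in KO, both above WT (limma adjusted p = 0.147). Epor, the erythropoietin receptor, had the highest fold change of the list at 0.59 (limma adjusted p = 0.0916). With the length and GC trend removed both turned, to -0.24 for Klf1 and -0.09 for Epor. DESeq2 called 1 of the 14 higher (Epor) and 2 lower (Car1 and Rhag), against 9.54% and 9.81% of all genes. Alas2 in KO 3 was low together with Slc4a1 and not with Klf1. Among the globin genes, Hbb-bs read 853, 838 and 1351 in WT, 2596 in KO 2 and 837 in KO 3. Hba-a1 read 827, 1037 and 1358 in WT, 2169 in KO 2 and 788 in KO 3. Hbb-bt read 224, 214 and 279 in WT, 354 in KO 2 and 267 in KO 3. These globin genes lay above all WT libraries in KO 2, where Alas2 lay inside the WT range. In bulk libraries fewer cells of a type and less RNA per cell cannot be told apart, and the part of these marker genes in the enzyme levels was not tested.

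**Figure D4:**
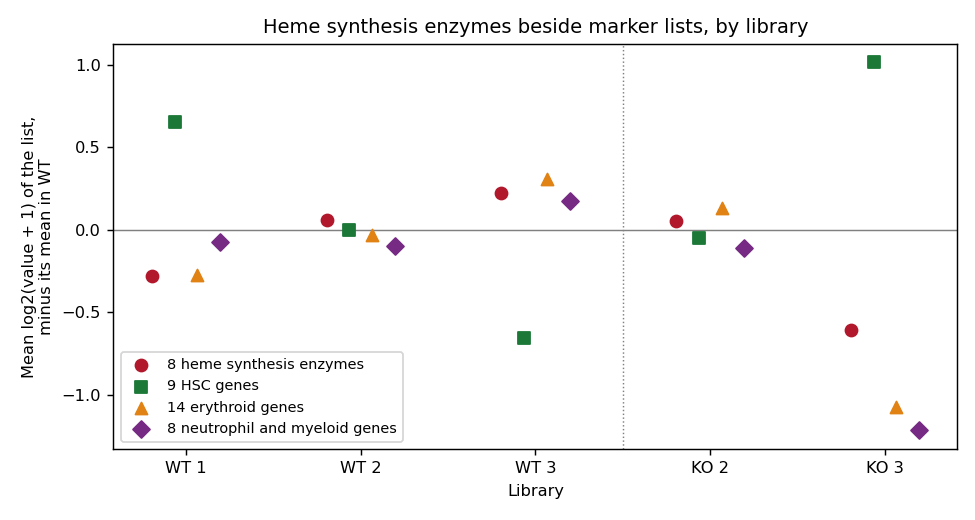
Mean log2(value + 1) of 4 gene lists minus the list's mean over WT (y axis) in each library (x axis), with 1 symbol per list. The enzymes (red) were lowest in KO 3 at -0.61 and in WT 1 at -0.28, the libraries in which the HSC genes (green) were highest at 1.01 and 0.65.

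For the genes whose profile over the 5 libraries was closest to Alas1 and Alas2, likeness was taken as the root mean square difference of centred log2 values over the 11429 genes whose mean value reached 50. The 3 closest to Alas1 were Sema4a (0.025), Slc16a6 (0.036) and Slc25a44 (0.036). Sema4a read 3588, 5810 and 5410 in WT and 4994 and 3100 in KO 2 and KO 3. The 3 closest to Alas2 were Gm14085 (0.11), Bzrap1 (0.12) and Tnf (0.13), each lowest in KO 3 and next lowest in WT 1. With 5 libraries such likeness is a description and carries no test.

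The genes that feed heme synthesis were then examined to see how the supply side of the pathway compared in KO and WT. In the list of mitochondrial substrates and porphyrin transport, limma called 0 of the 12 genes given here, while DESeq2 called 3 higher and 0 lower, against 9.54% and 9.81% of all genes. The genes with DESeq2 calls are named here because of those calls. Higher were Shmt2, which makes mitochondrial glycine (limma log2 fold change 0.87, limma adjusted p = 0.0815), Clpp, the peptidase partner of the ALAS-regulating unfoldase CLPX, and Tspo, an outer membrane porphyrin-binding protein. The lowest fold change of these 12 was -0.28, in Sucla2, a subunit of succinyl-CoA synthetase (limma adjusted p = 0.612). Its direction turned without KO 3 (0.26) and with the trend of transcript length and GC content removed (0.22).

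The transporters closest to the enzymes in the pathway gave no call. Slc25a38, which brings glycine into mitochondria, had a log2 fold change of 0.03, Tmem14c, which moves protoporphyrinogen inward, of -0.02, and Abcb10, which binds mitoferrin and ferrochelatase, of -0.23 (limma adjusted p = 0.951, 0.958 and 0.581). In the same order these were 0.34, 0.38 and 0.04 without KO 3, and -0.29, -0.43 and -0.49 without KO 2. Abcb10 read 3094, 4786 and 4771 in WT and 4247 and 2942 in KO, the same split of WT 1 and KO 3 from the rest as in Alas1.

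Among 15 genes of iron uptake, storage and iron-sulfur assembly, limma called 0 and DESeq2 4 higher and 3 lower, against 9.54% and 9.81% of all genes. Tfrc, the transferrin receptor that brings iron into the cell, had the lowest fold change. It read 4476, 4439 and 6680 in WT, with KO 2 at 3480 and KO 3 at 1018, both below WT (limma log2 fold change -1.44, limma adjusted p = 0.101). It was -0.55 without KO 3 (limma adjusted p = 0.365) and -2.32 without KO 2 (limma adjusted p = 0.00205). The iron exporter gene Slc40a1 and the ferritin receptor gene Ncoa4 were also called lower by DESeq2. By limma, Slc40a1 was at -0.66 without KO 3 and -2.18 without KO 2, and Ncoa4 at -0.52 and -0.84. Ftl1, a ferritin chain, Glrx5 and Iscu, of iron-sulfur assembly, and Pcbp1, an iron chaperone, were called higher, with limma log2 fold changes of 0.59, 0.72, 0.62 and 0.73, the last being 0.45 without KO 3. Slc25a37, the mitoferrin that imports iron for heme, read 537, 676 and 817 in WT and 538 and 529 in KO (limma adjusted p = 0.415).

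Heme breakdown and export gave 0 calls among 8 genes tested by limma, and 0 by DESeq2 against 9.54% of all genes called higher and 9.81% lower. Hmox1, the inducible oxygenase that degrades heme, read 426, 395 and 410 in WT, with KO 2 at 294 and KO 3 at 196, both below WT (log2 fold change -0.77, limma adjusted p = 0.127, DESeq2 adjusted p = 0.0703). The log2 fold change of Hmox1 was -0.48 without KO 3. Flvcr1, an exporter of heme listed under its older symbol Mfsd7b, read 677 to 1088 in WT and 656 and 902 in KO. Slc46a1, a folate and heme carrier, had the highest fold change of that list at 0.54 on 28.3 to 92.5 normalized reads, and 0.06 without KO 2.

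Among 10 genes that sense heme or iron, limma called 0. DESeq2 gave 9 of them an adjusted p and called 0 higher and 3 lower, against 9.54% and 9.81% of all genes. Ireb2 encodes IRP2, which binds iron-responsive elements in mRNAs such as those of Tfrc, ferritin and Alas2. It read 905, 797 and 978 in WT, with KO 2 at 396 and KO 3 at 210 (limma log2 fold change -1.62, 95% interval -2.31 to -0.94, limma adjusted p = 0.0815, DESeq2 adjusted p = 0.000211). Eif2ak1, the heme-regulated kinase that slows translation when heme is scarce, read 2538, 2586 and 3214 against 2024 and 1508 (limma log2 fold change -0.66, DESeq2 adjusted p = 0.0334). Fbxl5, the ligase subunit that degrades IRP2 when iron is present, was the third. Bach1, a repressor released by heme, read 179 to 241 in WT and 217 and 199 in KO (limma adjusted p = 0.970), and Nr1d1, a nuclear receptor that binds heme, had the highest fold change of the list at 0.94 (limma adjusted p = 0.125).

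**Figure D5:**
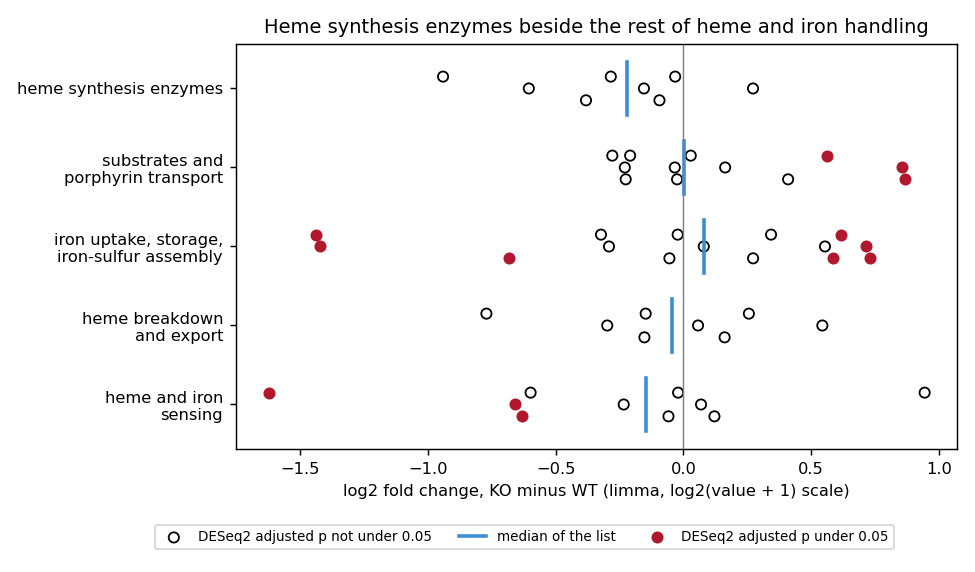
Log2 fold change of KO against WT (x axis) for each tested gene of 5 lists (y axis), with filled red symbols for genes with a DESeq2 adjusted p under 0.05 and a blue line for each list's median. None of the 8 enzymes is filled, and their median is -0.22, while filled genes lie above 0 in the substrate list and on both sides of 0 in the iron list.

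The base composition of transcripts moved with the fold changes across the whole table and touches these lists. From the tenth of genes with the lowest GC content to the tenth with the highest, the median log2 fold change went from -0.76 (median GC 39.8%) to 0.73 (median GC 59.9%). The enzymes spanned 46.0% GC (Fech) to 56.2% (Alad). With the length and GC trend removed, the median of the 8 was -0.35 in place of -0.22. In that limma fit 0 of all 13015 genes were called (2253 at an unadjusted p under 0.05). The log2 fold change was then -0.55 for Alas1, -1.17 for Alas2, -0.62 for Uros and -0.13 for Fech. For Ppox it was -0.40 in place of -0.15 and for Urod -0.30 in place of -0.03. Of the 8, 7 were below 0, Cpox at 0.063 being the exception. For Ireb2, at 39.0% GC, the log2 fold change was -0.86 in place of -1.62, and for Tfrc -0.73 in place of -1.44. For Fbxl5, at 41.6% GC, it was -0.04 in place of -0.63, whereas Eif2ak1 at 49.2% GC was at -0.63 in place of -0.66. For Slc40a1 it was -0.86 in place of -1.42 and for Ncoa4 -0.36 in place of -0.68. Among the genes called higher, Glrx5 went from 0.72 to 0.49, Iscu from 0.62 to 0.37, Shmt2 from 0.87 to 0.34, Clpp from 0.86 to 0.33, Pcbp1 from 0.73 to 0.18, Ftl1 from 0.59 to 0.04 and Tspo from 0.56 to -0.03. Of the uncalled genes named for the highest fold change of their list, Slc46a1 went from 0.54 to 0.04 and Nr1d1 from 0.94 to 0.45.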

How the data were processed

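Libraries were made with SMART-Seq v4. Per the labels, STAR, featureCounts and DESeq2 were named on mm10. Their versions and the annotation are not given in the sources used here. The authors deposited normalized signal, reads divided by a size factor per library, for 24046 genes, and a table of their own comparison (log2 fold changes and p-values), not used here. Multiples of each column's step gave whole reads for 100% of values (tolerance 0.01).

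limma (3.58.1, mean-variance trend) was run in R 4.3.3 on log2(value + 1) for 13661 genes (10 or more in no fewer than 2 libraries), KO against WT without covariates. Values were Benjamini-Hochberg adjusted over all genes and called under 0.05. This scale understates changes of low genes. On whole reads, edgeR's quasi-likelihood test (4.0.16) called 2 genes and DESeq2 (1.42.0) 2290. The tests were checked on simulated data. Coordinates are GENCODE M21 (GRCm38), and levels per kilobase use the longest APPRIS principal transcript. Every pair of libraries differed by more than counting noise (chi-square over its degrees of freedom, lowest value 33.5). Reads carried no molecular identifiers, so counting noise understates the error.

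The genes, lists and tests were chosen with earlier results of these data known. Named were the 8 enzymes, Syncrip, the highest and lowest fold change of each heme, iron and erythroid list, a preset group of transporters, sensors and erythroid factors, and the 3 genes closest in profile to Alas1 and to Alas2. Other marker genes and the genes called by DESeq2 were named after their values were seen. Older symbols were matched through RefSeq synonyms for Flvcr1, Flvcr2 and Epb42, and Ahsp was not analysed here. Some genes of the pathway and its lists are not reported here. Hba-a1 and Hba-a2 carried identical counts.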

Additional observations from a re-analysis of the deposited data

How the results depend on the processing

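With 16 alternatives for each of the 8 enzymes, all stayed uncalled except Alas2 and Uros, which were called when KO 2 was left out (2 of 8, where 3560 genes were called and KO 3 stood alone), 14.4% of genes being called lower in that fit. Directions turned for Alas1 (0.073), Urod (0.18), Cpox (0.12) and Ppox (0.19) without KO 3, for Urod (0.046) and Cpox (0.065) without WT 3, and for Alad (-0.16) and Cpox (0.063) with the length and GC trend removed. Over the fits leaving out 1 library each, the log2 fold change ran from -0.64 to 0.073 for Alas1, -0.24 to 0.18 for Urod, -0.30 to 0.12 for Cpox, -0.50 to 0.19 for Ppox, -0.69 to -0.07 for Fech, 0.17 to 0.42 for Alad, -0.89 to -0.32 for Uros and -1.88 to -0.01 for Alas2. The median of the 8 ran from -0.57 without KO 2 to 0.095 without KO 3. Syncrip was no longer called with all 17487 genes that had a read (-2.43, adjusted p = 0.0503), limma-voom (-2.46), array weights (-2.42), the length and GC trend removed (-1.53) or any WT library left out (-2.55 to -2.34). Over the fits leaving out 1 library each it ran from -2.55 to -2.32.

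The count of genes called was 1, and became 2 with a pseudocount of 10, 2 with edgeR, 2290 with DESeq2 (1129 higher), 0 with all genes, limma-voom, array weights or the length and GC trend removed, and 1534 at an adjusted p under 0.1. At an unadjusted p under 0.05, these fits with 0 calls had 3963, 3517, 3328 and 2253 genes. Leaving out 1 library gave 0 to 3560 calls, 11 of them without KO 3. Deviations from the group mean correlated at -0.06 between the libraries of number 2 and -0.18 between those of number 3. The deviations of KO 2 and KO 3 from their mean mirror each other, so these values cannot tell whether shared numbers pair the libraries. With the replicate block 6 genes and 0 of the 8 enzymes were called, and Alas2 was at -1.27 and Uros at -0.73. WT 1 has no KO partner in that fit, so these fold changes are the same as without WT 1. The scaling (TMM, upper quartile) and thinning to the shallowest library changed no direction or call of the 8. Depth limits Alas2 most, at 33 reads in KO 3.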
